A study of Mus musculus with 2 samples.

Results

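The acute phase plasma proteins are secreted mainly by the hepatocyte, and several of them increase steeply in blood during infection or injury. Followed here were 10 such genes, namely the serum amyloid A genes Saa1, Saa2, Saa3 and Saa4, the orosomucoid genes Orm1, Orm2 and Orm3, the pentraxin genes Apcs and Crp, and the lipopolysaccharide-binding protein gene Lbp. They were selected by symbol and not by a cut-off on their values, though the list was chosen with earlier results of these data known. All 10 were found in the GENCODE M21 gene tables, among 55536 named genes, 22028 of them protein-coding. The tissue was liver of B6NCrl mouse embryos aged 12.5 days, described as healthy, with male and female embryos pooled. Replicate 1 held livers of 120 embryos and replicate 2 of 88, and both pools carry the same donor identifier in the labels. Polyadenylated RNA was sequenced from 10 ng of RNA per library, and no treated, inflamed or adult group is analysed here. The values therefore describe 1 tissue at 1 stage, and the spread between the libraries is a spread between 2 pools. Expected counts, the estimated reads per gene, summed to 37190042 and 34291772 over named genes, and spike-in RNA made up 4.99% and 5.40% of TPM.

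In the acute phase response, cytokines of the interleukin-6 family act through the receptor chain Il6st, the JAK kinases and the factor Stat3, while interleukin-1 and tumour necrosis factor act through NF-kB. C/EBP factors join both on the promoters of the liver genes. Saa1 and Saa2 are the inducible liver forms of serum amyloid A, a protein carried on high-density lipoprotein, whereas Saa4 is the constitutive form. Apcs encodes serum amyloid P component, which is the main acute phase pentraxin of the mouse, where Crp responds only modestly.

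Copies of these genes resemble each other, which limits how reads are divided among them. The coding sequences of Saa1 and Saa2 have 369 bases each and differ at 18 positions, an identity of 95.1%. The 60 coding bases in which they differ most, positions 90 to 149 counted from the start codon, are shown because reads over such bases can be told apart between the copies. Capitals mark the 7 differing bases.
Saa1: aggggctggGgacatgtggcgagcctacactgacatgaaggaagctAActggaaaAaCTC
Saa2: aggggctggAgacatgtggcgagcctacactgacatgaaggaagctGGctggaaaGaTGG
Saa3 and Saa4 are further apart, with 75.9% and 65.2% identity to Saa1 over the aligned coding bases. The coding sequences of Orm1 and Orm2 differ at 63 of 624 positions, an identity of 89.9%, and Orm3 has 86.1% identity to Orm1 and 88.0% to Orm2. For Orm1 and Orm2 the stretch from position 138 to 197 holds 17 differing bases, again in capitals.
Orm1: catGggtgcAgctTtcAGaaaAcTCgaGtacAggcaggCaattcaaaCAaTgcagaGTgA
Orm2: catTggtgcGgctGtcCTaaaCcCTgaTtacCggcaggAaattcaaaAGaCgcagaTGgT

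Every window of 50 bases in each gene's annotated transcripts was looked up in all GENCODE M21 transcripts on both strands. In Saa1, 68.5% of windows occurred in no other gene, and in Saa2 70.0%, and 784 windows were common to both. In Orm1 and Orm2, with 1 annotated transcript each, the shares were 79.6% and 77.3%, with 148 windows in common. The transcripts of Saa1 and Saa2 include retained-intron models of 2446 and 2443 bases, longer than their coding models. Their shares are therefore not those of the coding messages alone. The other 6 genes had between 95.8% and 100% of windows to themselves. With windows of 100 bases, Saa1, Saa2, Orm1 and Orm2 had 91.0%, 91.4%, 93.0% and 93.0%, more than at 50 bases. The read length is not given in the sources used here.

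**Figure D1:**
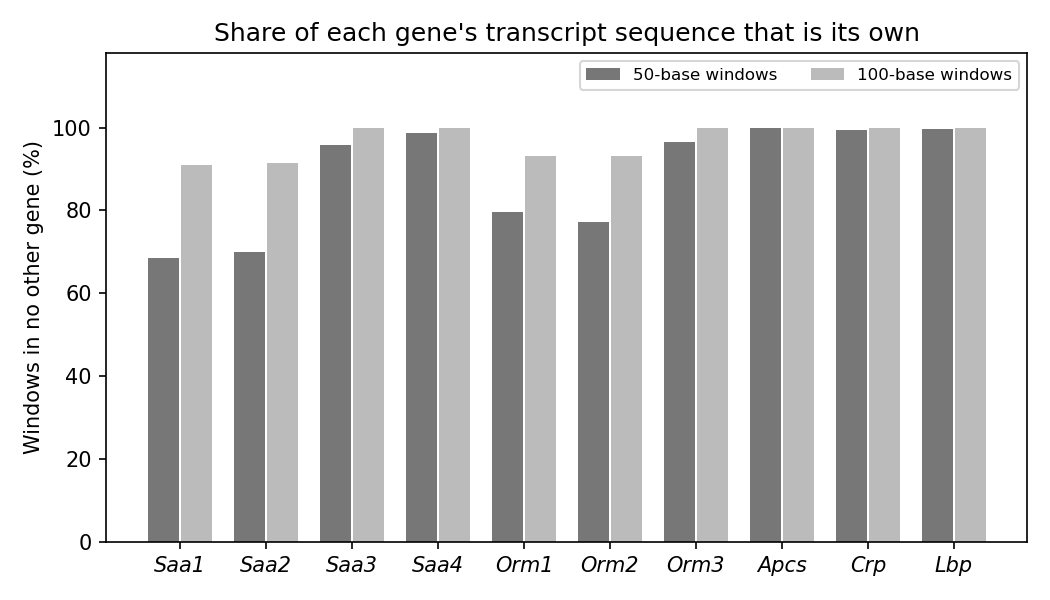
Percent of sequence windows of 50 bases (dark bars) and 100 bases (light bars) that occur in no other gene. Windows come from all annotated transcripts of each gene, retained-intron models included. Saa1 and Saa2 have the lowest shares at 50 bases, 68.5% and 70.0%, followed by Orm2 and Orm1.

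Of the 10 genes, 4 were present at 1 TPM or more in both libraries, namely Lbp, Crp, Apcs and Saa4. TPM, a gene's share of transcripts after scaling by length, is a level per length, so it can be compared between genes. Of all protein-coding genes 53.5% reached this level. Only Lbp reached 10 TPM in both libraries, against 31.5% of protein-coding genes. Summed over the 10 genes, the libraries held 29.1 and 28.1 TPM. The median of the set was 0.635 TPM in the first library and 0.240 TPM in the second, beside 1.81 TPM (mean of the libraries) over all protein-coding genes. In bulk RNA, fewer cells of a type and less RNA per cell cannot be told apart. The 6 genes under 1 TPM in both libraries were Saa1, Saa2, Saa3 and the 3 Orm genes.

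**Figure D2:**
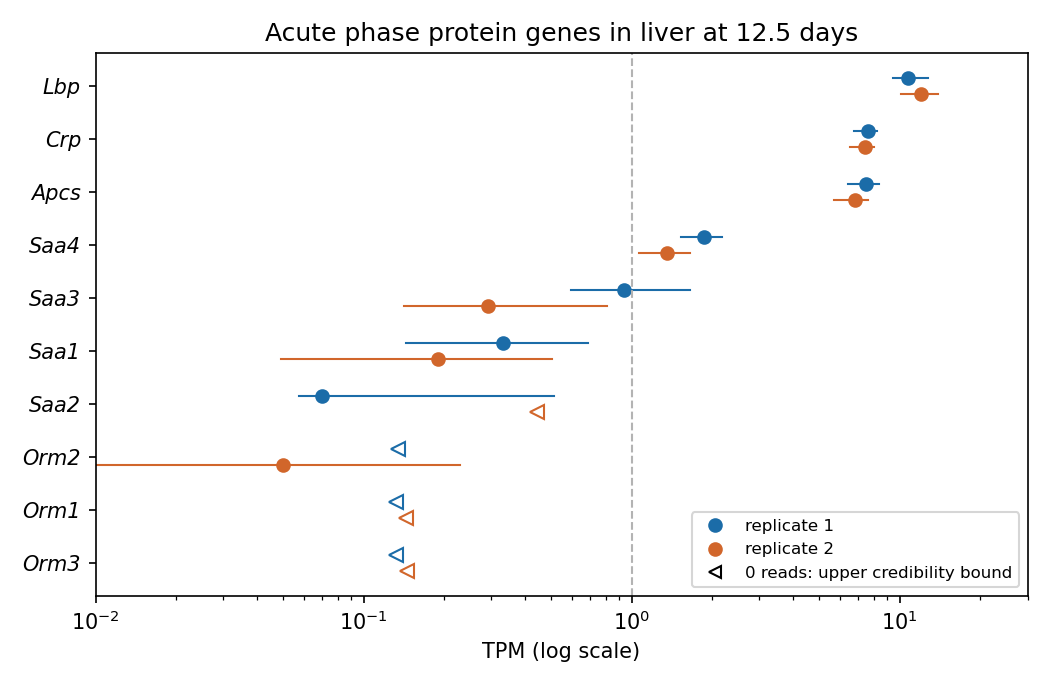
TPM of each gene on a log scale in replicate 1 (blue) and replicate 2 (orange), with lines for the deposited credibility interval (cut off at 0.01 TPM for Orm2). An open triangle marks a library with 0 reads and stands at the upper end of that interval, and the dashed line marks 1 TPM. The order runs from Lbp, at 10.8 and 12.0 TPM, to Orm1 and Orm3, which had no read.

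Lbp, which binds bacterial lipopolysaccharide in plasma and hands it to Cd14, was the most abundant of the set. Its gene (ENSMUSG00000016024.9) lies on chromosome 2 of the mm10 assembly, which all coordinates refer to, from 158306493 to 158332852. It had 741 reads and 10.8 TPM in the first library and 726 reads and 12.0 TPM in the second, a mean of 11.4 ± 0.863 TPM (SD, n = 2). That mean was higher than those of 69.8% of protein-coding genes. Albumin, the main adult plasma protein, stood 77.1-fold ± 4.89 above Lbp, and alpha-fetoprotein 454-fold ± 45.9 above it.

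Lbp has 5 annotated transcripts, and the full-length coding form Lbp-201 of 2525 bases held most of the gene's TPM. Its share was 78.7% in replicate 1 and 73.8% in replicate 2. The short coding model Lbp-203, of 436 bases, had 11.1% and 16.3%, but this rested on 13.2 ± 9.58 and 20.0 ± 10.1 reads (± posterior SD of the count), so that its level is poorly determined. The retained-intron form Lbp-204 had 4.17% and 4.75% of TPM. The full-length form led in both libraries.

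The pentraxin genes Crp and Apcs followed at nearly equal levels. Pentraxins are ring-shaped proteins that bind phosphocholine and other ligands in the presence of calcium. Crp (ENSMUSG00000037942.5, chromosome 1, 172698055 to 172833031) had 396 reads and 7.60 TPM in the first library and 358 reads and 7.42 TPM in the second. Apcs (ENSMUSG00000026542.6, chromosome 1, 172893961 to 172895041) had 214 reads and 7.51 TPM in the first library and 179 reads and 6.79 TPM in the second. Crp stood at 1.05 ± 0.0571 times Apcs, and the ranges of the genes over the libraries overlapped, as did their credibility intervals in each library. Lbp lay above both genes in both libraries, at 1.52 ± 0.141 times Crp and 1.60 ± 0.235 times Apcs.

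All Crp reads were assigned to its coding transcript of 1695 bases, and the other annotated model, a processed transcript of 1894 bases, had 0 reads in both libraries. Apcs has a single annotated transcript. Albumin exceeded Crp 117-fold ± 3.42 and Apcs 123-fold ± 10.3. Among the other acute phase genes listed, Itih4 at 7.39 and 7.70 TPM was nearest to both pentraxins in level.

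Of the Saa genes, which lie within 42316 bases of chromosome 7, the constitutive Saa4 led. Saa4 (ENSMUSG00000040017.8, 46727998 to 46732603) had 122 reads and 1.87 TPM in the first library and 82 reads and 1.36 TPM in the second. It made up 58.3% and 73.9% of summed Saa TPM, a mean of 66.1% ± 11.1, and 84.1% and 92.1% of Saa reads. The Saa4 transcript has 2094 bases, and the models that held the coding reads of Saa1 and Saa3 have 609 and 555, which makes the count share the larger one. Saa4 lay below Apcs in both libraries, which stood 4.50-fold ± 0.691 above it. Its posterior SD was 0 in both libraries, meaning that no uncertainty in assigning its reads was recorded.

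Saa3, a form made in macrophages, fat and epithelia in adult mice, came next. Saa3 (ENSMUSG00000040026.8, 46711998 to 46715700) had 14 reads and 0.940 TPM in replicate 1 but 4 reads and 0.290 TPM in replicate 2. The ratio between the libraries was wider for Saa3 than for the 5 other members with reads in both. All of its reads were given to the coding model of 555 bases. The posterior SD of that model's count was 2.64 reads in replicate 1, while that of the whole gene was 0.

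Saa1 (ENSMUSG00000074115.5, 46740497 to 46742980) had 8 reads and 0.330 TPM in the first library and 3 reads and 0.190 TPM in the second. Of its 8 reads, 3.19 were assigned to a retained-intron model of 2446 bases and 4.81 to the coding model of 609 bases. Saa2 (ENSMUSG00000057465.5, 46751790 to 46754313) had 1 read in replicate 1 and 0 in replicate 2, where the deposited credibility interval of its TPM reaches 0.444. In replicate 1 the posterior SD was 0.430 reads for Saa1 and 0.430 for Saa2, with posterior mean counts of 7.75 and 1.25. These were the only members with a posterior SD above 0 in that library, 2 of the 7 members with a count, beside 32.8% of protein-coding genes with a count. In replicate 2 no member had one. Together Saa1, Saa2 and Saa3 gathered 23 reads in replicate 1 and 7 in replicate 2.

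The orosomucoid genes gave 1 read in all. These genes encode alpha-1-acid glycoprotein, an abundant drug-binding protein of adult plasma, and lie within 21319 bases of chromosome 4. Orm1 (ENSMUSG00000039196.2, 63344560 to 63348163) and Orm3 (ENSMUSG00000028359.4, 63356162 to 63359511) had 0 reads in both libraries. Orm2 (ENSMUSG00000061540.3, 63362449 to 63365878) had 0 reads in replicate 1 and 1 read, 0.0500 TPM, in replicate 2. The posterior SD was 0 for all 3 in both libraries, but with 1 read in all it says little about telling the copies apart.

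A count of 0 allows up to 0.136 TPM of Orm1 in replicate 1 and 0.147 TPM in replicate 2. Against that limit, albumin was at least 6400-fold higher than Orm1 in replicate 1 and at least 6030-fold higher in replicate 2. Lbp was at least 79.4-fold and 81.8-fold higher than Orm1. For the 6 genes under 1 TPM, the order among neighbours cannot be read: the credibility intervals of Saa3 and Saa1, of Saa1 and Saa2, and of Saa2 and Orm2 overlapped in both libraries. Those of Saa4 and Saa3 overlapped in replicate 1 alone.

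The libraries were then compared with each other, as a measure of the spread. The 4 members at 1 TPM or more had a mean of at least 10 reads. None of the 4 was called, where 2.38% of 17369 genes were (a ratio past 2-fold whose 95% binomial interval is clear of equality). On the log2 scale, replicate 2 over replicate 1 was 0.08 for Lbp (95% interval -0.07 to 0.23), -0.03 for Crp (-0.24 to 0.18) and -0.14 for Apcs (-0.44 to 0.15). For Saa4 it was -0.46 (-0.88 to -0.04), which did not pass 2-fold. Without the minimum of 10 reads Saa3 would be called, with a log2 ratio of -1.58 (-3.76 to -0.02). It was singled out after its values were seen, and its 18 reads limit the precision.

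**Figure D3:**
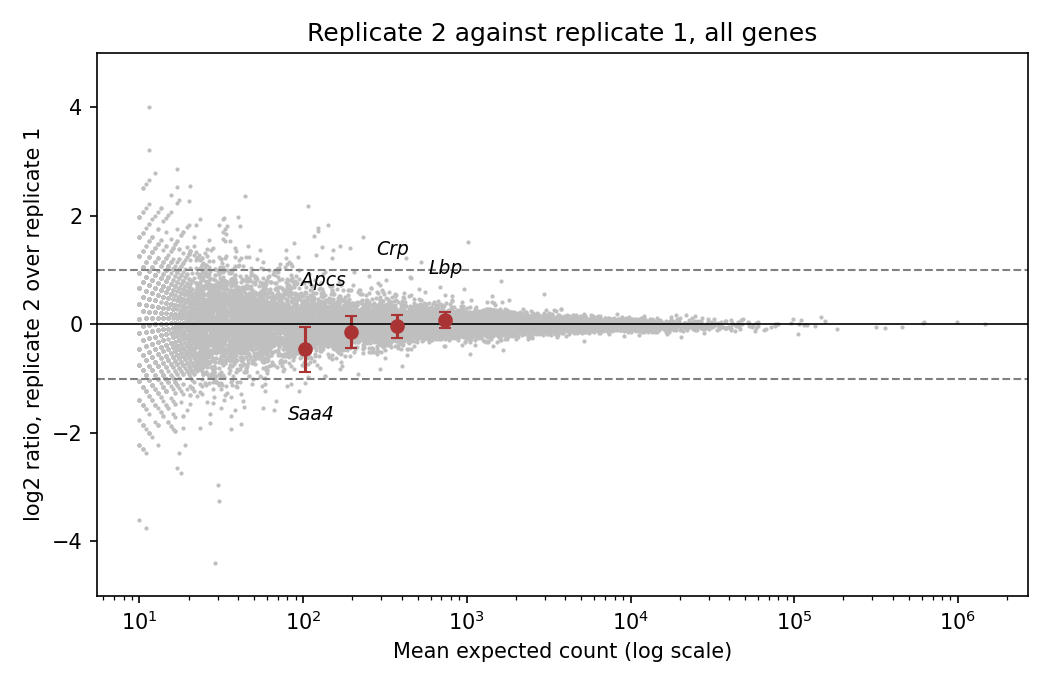
The log2 ratio of replicate 2 to replicate 1 after TMM scaling against the mean expected count on a log scale. Grey points are the 17369 genes with a mean of at least 10 reads, red points with 95% binomial intervals are Saa4, Apcs, Crp and Lbp, and dashed lines mark 2-fold. The 4 genes lie between -0.46 and 0.08.

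Each library was also quantified under the older annotation M4, and the members changed little. Among the 5 members at 1 TPM or more in any table, none differed past 1.5-fold on the log2(TPM + 1) scale in both libraries, where 5.39% of 13620 genes did. Crp, Apcs and Lbp had identical read counts under both. Saa1 had 5 reads under M4 and 8 under M21 in replicate 1, and 3 under both in replicate 2. Saa3 had 3 reads under M4 and 4 under M21 in replicate 2. Saa4 had 121 reads under M4 and 122 under M21 in replicate 1, and 79 and 82 in replicate 2. Saa2 and the Orm genes kept the same counts, and the posterior SD was 0 for each Saa and Orm gene under M4.

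The signals that drive these genes were sought next in lists drawn from general knowledge. Where 53.5% of all protein-coding genes reached 1 TPM in both libraries, 2 of 11 inducing cytokines did. These were the gp130 cytokine gene Ctf1, at 2.98 and 3.81 TPM, and Il1a, at 3.14 and 2.35 TPM. Il6, the main inducer, had 4 and 8 reads, 0.0900 and 0.180 TPM. Il1b had 0.320 and 0.370 TPM, Tnf 0.280 and 0.300 TPM, and Osm 0.460 and 0.400 TPM. Clcf1 had 0.610 and 1.05 TPM and Cntf 0.880 and 0.920 TPM. Il11 and Lif had at most 3 reads in a library, and Il22 had none.

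Receptors and transducers stood higher. Of 10 receptor genes 8 reached 1 TPM, beside 53.5% of protein-coding genes. The receptor medians were 12.2 and 10.8 TPM in the libraries. The highest were Il11ra1 at 36.03 and 33.2 TPM, the tumour necrosis factor receptor gene Tnfrsf1a at 19.3 and 19.6 TPM, the glucocorticoid receptor gene Nr3c1 at 18.8 and 18.9 TPM and Lifr at 20.9 and 16.6 TPM. The shared chain Il6st had 9.33 and 8.45 TPM and the interleukin-6 receptor gene Il6ra 1.63 and 1.75 TPM. The receptor genes below 1 TPM were Osmr (0.110 and 0.0800) and Il22ra1 (0.310 and 0.160).

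All 16 genes listed as signal transducers and factors, with a median of 12.5 and 12.7 TPM, reached 1 TPM, beside 53.5% of protein-coding genes. Jak1 had 50.04 and 51.2 TPM, Stat3 31.3 and 33.5 TPM, the NF-kB subunit gene Rela 28.2 and 26.9 TPM and Cebpb 18.3 and 19.6 TPM. Cebpa had 9.68 and 9.69 TPM, Cebpd 3.75 and 3.70 TPM and Socs3, a feedback inhibitor that Stat3 induces, 8.20 and 7.17 TPM. Most receptor messages and all 16 of the transducer and factor list therefore reached 1 TPM, while Il6 and most other inducers lay under it.

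Genes that act with the plasma proteins were partly present. Of 17 partners and receptors, with a median of 2.66 and 3.08 TPM, 13 reached 1 TPM, beside 53.5% of protein-coding genes. The lipoprotein receptor gene Scarb1 had 73.1 and 74.3 TPM, and the complement genes C1qb, C1qc and C1qa, whose product binds pentraxins, had 44.6 and 45.7, 28.1 and 27.3, and 21.96 and 20.7 TPM. For lipopolysaccharide recognition, Cd14 had 0.620 and 0.410 TPM, Tlr4 1.69 and 1.59 TPM and its partner Ly96 4.16 and 5.02 TPM. Lbp exceeded Cd14 23.3-fold ± 8.41 and Tlr4 6.97-fold ± 0.827. The formyl peptide receptor gene Fpr1 had 0.770 and 0.510 TPM, and Fpr2, a receptor for serum amyloid A, had 0.270 and 0.210 TPM.

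Other acute phase genes were found from 0 reads to 2967 TPM. Of 24 other genes listed as increasing in the response, 13 reached 1 TPM, 10 reached 10 TPM and 5 reached 100 TPM in both libraries. Their median was 6.995 TPM in each, and whether each of them increases in the mouse was not tested. Of all protein-coding genes, 53.5%, 31.5% and 5.3% reached these levels, so the share at 1 TPM was near that background. The metallothionein genes Mt1 and Mt2 had 2967 and 2758 TPM and 870 and 857 TPM, and the fibrinogen genes Fga and Fgg had 163 and 159 TPM and 150.04 and 142 TPM. Fga stood 14.1-fold ± 1.33 above Lbp. At the other end, the hepcidin gene Hamp had 1 and 3 reads, the protease inhibitor gene Serpina3n 0 and 1 and Hamp2 none. The interleukin-1 antagonist gene Il1rn and the ceruloplasmin gene Cp were the highest of the 11 genes with a mean under 1 TPM, at 0.840 and 0.450 TPM and 0.570 and 0.640 TPM. The haptoglobin gene Hp had 8.82 and 9.05 TPM, 1.19 ± 0.0418 times Crp.

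All 8 genes listed as decreasing in the response reached 1 TPM, and 7 reached 100 TPM, beside 53.5% and 5.3% of protein-coding genes. Whether each of them decreases in the mouse was not tested. Alb, Ttr and Apoa1 are also counted among the hepatoblast markers below. The 8 genes had medians of 878 and 867 TPM. Transferrin, Trf, had 2433 and 2357 TPM, Apoa1 1208 and 1215 TPM and Rbp4 1201 and 1199 TPM. Albumin had 870 and 885 TPM. The low levels of Saa1, Saa2 and the Orm genes thus stood beside high levels of other secreted liver proteins.

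**Figure D4:**
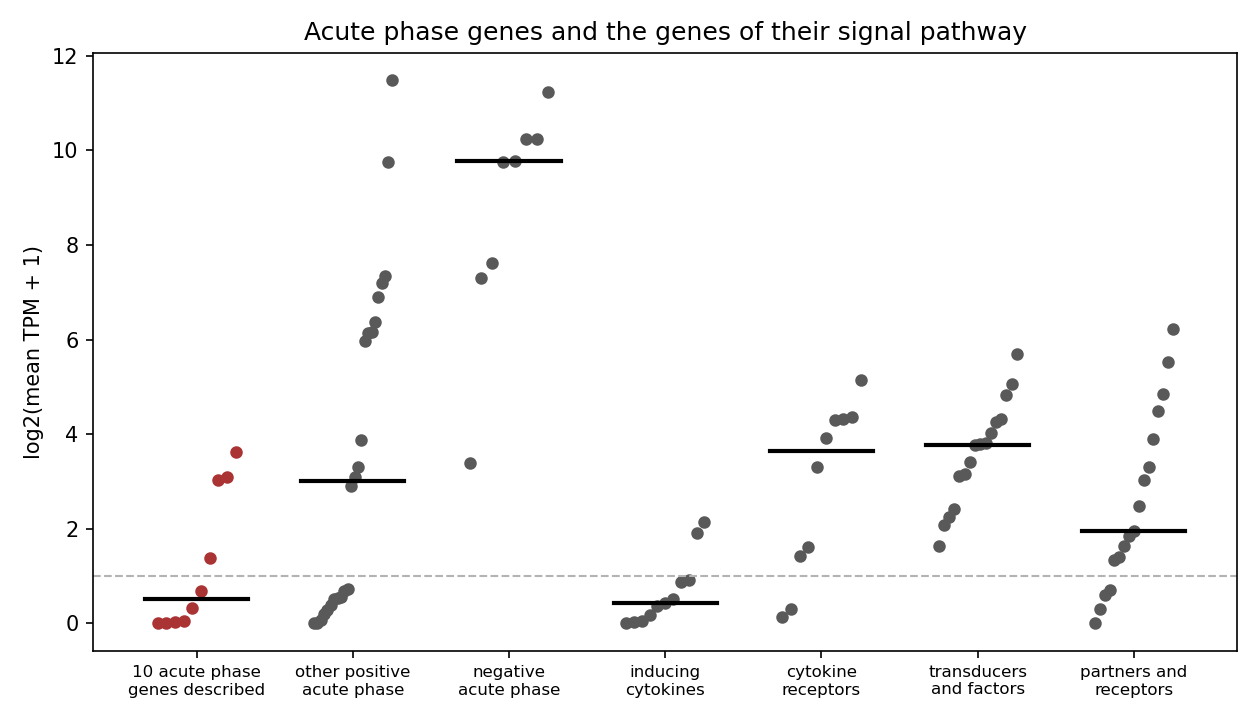
Mean TPM over the libraries, as log2(TPM + 1), of each gene in 7 lists, with the list's median as a bar and 1 TPM as a dashed line. Points are ordered by level within a list. The 10 genes described (red) lie under 12 TPM, as do the inducing cytokines, while 7 of 8 negative acute phase genes lie above 100 TPM.

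The levels were set beside markers of the cells that the tissue could hold. Of all protein-coding genes, 53.5% reached 1 TPM and 5.3% reached 100 TPM in both libraries. All 10 hepatoblast markers reached 1 TPM, led by Afp at 5250 and 5065 TPM, Apoa1, Alb and Dlk1, and they summed to 8131 and 7950 TPM. All 6 erythroid markers reached 100 TPM, led by Slc4a1 at 766 and 813 TPM, Alas2 and Klf1. Of 8 macrophage markers 7 reached 1 TPM, with sums of 169 and 168 TPM. Lyz2 led with 96.4 and 101 TPM, before C1qa, Csf1r and Cd68, and Cd163 had 0.0400 and 0.0500 TPM. The 6 adipocyte markers summed to 0.230 and 0.170 TPM. Retn had 3 and 4 reads, Adipoq and Cidec 1 and 0 reads each, and Plin1, Lep and Cfd 0 reads. Of 6 gut epithelial markers, Fabp2 at 4.98 and 5.19 TPM and Lgals4 at 3.06 and 2.23 TPM reached 1 TPM, Vil1 and Cdh17 stayed below it, and the gut factor gene Cdx2 had 2 and 0 reads. Saa3 was higher in replicate 1, and 5 of the 8 macrophage markers were also higher there, among them Adgre1 at 9.76 and 7.92 TPM and Mrc1 at 6.32 and 5.68 TPM. Lyz2, which made up most of the macrophage sum, and Cd163 were higher in replicate 2. Markers of the other cell types also went in both directions, and the share of all genes higher in replicate 1 was not counted. Over the 17369 genes compared after TMM scaling, the median log2 ratio of replicate 2 to replicate 1 was -0.003. Of the hepatoblast markers 7 were higher in replicate 1 and 3 in replicate 2, and of the gut epithelial markers 4 and 2. Of the adipocyte markers, which had at most 4 reads in a library, 2 were higher in replicate 1 and 1 in replicate 2. Of the erythroid markers it was 2 and 4. The part of any of these cells in the Saa3 reads was not tested.

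The sequence before the start sites was examined because C/EBP factors are known regulators of the inducible members and Cebpb was present. RefSeq start sites (GRCm38.p6) were available for 8 members, so that Lbp and Orm1 were not searched. The 250 bases before each start were searched on both strands for TTGCNCAA, the core of a C/EBP site. The motif was chosen with the sequences in view. In Saa4 the match is on the strand opposite the gene. The motif occurred once each in Saa1, Saa2, Saa4, Orm2 and Orm3 and not in Saa3, Apcs or Crp, and 2.61% of 32851 promoters of the same length hold it. The matches are shown in capitals with 30 bases on either side, each on the strand of its gene, because genes with no or few reads carry them as well as Saa4. The regions are chr7:46743125-46743192 for Saa1 (minus strand), chr7:46751620-46751687 for Saa2 (plus), chr7:46732618-46732685 for Saa4 (minus), chr4:63362299-63362366 for Orm2 (plus) and chr4:63356007-63356074 for Orm3 (plus).
Saa1: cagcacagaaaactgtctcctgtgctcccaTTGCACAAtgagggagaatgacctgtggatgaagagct
Saa2: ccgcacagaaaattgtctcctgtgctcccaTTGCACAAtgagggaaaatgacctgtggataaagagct
Saa4: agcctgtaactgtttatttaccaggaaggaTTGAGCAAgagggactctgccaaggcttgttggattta
Orm2: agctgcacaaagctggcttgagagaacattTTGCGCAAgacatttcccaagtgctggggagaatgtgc
Orm3: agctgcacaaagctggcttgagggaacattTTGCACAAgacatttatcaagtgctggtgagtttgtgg
The match begins 182 and 183 bases before the start in Saa1 and Saa2, 120 and 121 bases before it in Orm2 and Orm3, and 52 bases before it in Saa4. Over the 250 bases, Saa1 and Saa2 were 94.8% identical and Orm2 and Orm3 85.5%, while Saa4 had 42.6% identity to Saa1. A STAT site written TTCNNNGAA was found in Apcs alone of the 8 and in 7.02% of all promoters, and the NF-kB core GGGNNTTTC and the HNF1 half-site GTTAAT in none of the 8 members, against 3.72% and 6.43% of all. The TATA box TATAAA was found in Crp, Orm2 and Orm3, 31, 33 and 29 bases before the start, and in 12.4% of all promoters. No match overlapped another in these promoters, and a match is a description of letters, not a site shown to be bound. Each search was for the exact pattern within 250 bases, so a member without a match may hold a variant or more distant site.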

How the data were processed

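The expected counts and TPM values are as deposited. Per the file headers, each gene or transcript has an expected count, an effective length and a TPM; by definition TPM is a count per effective length scaled to a fixed sum per library, and in the values that sum includes the spike-ins. The posterior SD of a count, a score in reads, and the bounds of the TPM credibility interval are also as deposited, and the level of that interval is not given in the sources used here. The deposited notes name the mm10 assembly and the GENCODE annotations M4 and M21. The names of aligner and quantifier, and the use of strand, were not given in the sources used here. RNA was extracted with the mirVana kit, per the labels' protocols.

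The M21 tables were used throughout, except where M4 is named, and symbols and coordinates came from GENCODE M21. Entries without a gene identifier held 53 and 44 counts and were left out, as were spike-ins, which took 4.99% and 5.40% of TPM. No p-value was computed, since all samples form 1 group. The libraries were compared over genes with a mean count of at least 10, scaled by TMM in edgeR 4.0.16 with a prior count of 0.5 on rounded expected counts. Calls needed a ratio past 2-fold and an exact 95% binomial interval, on the gene's counts, clear of the scaled split. Intervals and floors cover counting error only; the floor of a gene without reads was set at 3 counts. DESeq2 1.42.0 size factors, other scalings, filters, thresholds, posterior mean TPM, the M4 annotation and each library alone were alternatives. Coding sequences were aligned with Biopython 1.88.

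The members, gene lists and rules were chosen with earlier results of these data known. Named were all members, every inducing cytokine, of each other list the 4 highest genes with up to 2 under 1 TPM, and the 2 nearest protein-coding genes on each side of a gene cluster. Other genes are named for their role and were chosen after their values were seen. One gene that the rule selects is not reported here.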

Additional observations from a re-analysis of the deposited data

How the results depend on the processing

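At 1 TPM or more in both libraries were 4 members under each alternative run, except for 3 at a threshold of 2 TPM. The sum over the members was 29.6 TPM under M4 and 30.2 TPM when TPM was rescaled to named genes alone, against 28.6 TPM. Saa4 held 88.1% of Saa reads against 66.1% of Saa TPM, and 58.3% to 73.9% in each library alone. The Orm2 share rests on 1 read and went from 100% to 41.7% with posterior mean TPM, which gives genes without reads a level above 0, and it could not be computed from replicate 1. At a threshold of 0.5 TPM the inducing cytokines reached 4 of 11 and the gut markers 4 of 6. The number of genes called between the libraries was 414, with 753 without a count minimum and 47 with a minimum of 50, since more or fewer low genes were compared, and members called were 0 and, without the minimum, 1 (Saa3). Spike-in scaling moved the median log2 ratio of all genes to -0.12 and that of Lbp from 0.08 to -0.04, and no member was called under it. No paired analysis was possible because there is a single group. Depth limits the 6 lowest members, which held at most 14 reads in a library.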

Other observations

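The neighbours of the acute phase gene clusters had levels of their own. Saal1, 1318 bases from Saa3, had 17.6 and 18.0 TPM, and Hps5 and Gtf2h1 on the far side of Saa2 had 9.00 and 8.15 and 49.5 and 47.2 TPM, while Tph1 had 1 read in each library. Beside the Orm genes, Akna, 1247 bases from Orm2, had 4.52 and 4.78 TPM, Col27a1 2.28 and 1.89 TPM, Kif12 6.02 and 5.93 TPM and Whrn 0.960 and 1.15 TPM. The pseudogenes Saa-ps and Gm11212, which lie inside the clusters, had 0 reads in both libraries.

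Bpi, a relative of Lbp that also binds lipopolysaccharide and lies 21962 bases away, had 1 and 0 reads beside 741 and 726 for Lbp. On its other side Snhg11 and Ralgapb had 1.83 and 1.97 and 8.82 and 8.79 TPM, and D630003M21Rik beyond Bpi had 0.330 and 0.260 TPM. Around Crp and Apcs, the phosphatase gene Dusp23 had 4.18 and 3.63 TPM, Fcrl6 had 0 and 2 reads, and the olfactory receptor genes Olfr16 and Olfr1408 had none.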
